A study of Mus musculus with 6 samples.

Results

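The comparison described here sets endothelial cells labelled as having lost 1 Dll4 allele (called het, genotype Dll4+/-) against cells with both alleles intact (called wt, genotype WT), and asks what the loss of 1 allele changed across all expressed genes. Its members are 4 of the 6 libraries of the series, wt4, wt5, het2 and het3, chosen by their genotype labels and numbered as the labels number them. The other 2 libraries, KO1 and KO2 (genotype Dll4-/-), are labelled as lacking both alleles, and their values are given beside those of the members. All 6 libraries entered the fit, so KO1 and KO2 also bear on the filter, the scaling and the spread behind the tests below. The cells were cardiac endothelial cells of mouse embryos, sorted as positive for both CD31, an endothelial surface protein, and GFP. Every group, wt included, carried Pdgfb-iCreERT2-IRES-EGFP, in which Pdgfb sequences drive a tamoxifen-inducible Cre recombinase together with EGFP in endothelial cells, and every group received tamoxifen at E13.5 (embryonic day) and was collected at E14.5. The wt embryos came from transgenic parents mated with wildtype females, the het embryos from Dll4 flox/flox transgenic parents mated with wildtype females, and the KO embryos from the same kind of parent mated with Dll4 flox/flox females. EGFP marks cells that express the transgene, not cells in which the floxed allele has recombined. The labels name several litters and do not say which litter, or how many hearts, went into a library.

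Dll4 is a membrane-bound ligand of the Notch receptors. When it binds a receptor on a neighbouring endothelial cell, proteases release the receptor's intracellular part, which joins the DNA-binding protein RBPJ in the nucleus and switches on targets such as the Hes and Hey repressors. In developing vessels the pathway is known for restraining tip-cell behaviour, for supporting arterial identity, including the connexin gene Gja5, and for slowing proliferation. Dll4 is also known as one of the few genes for which a mouse with a single working copy has vascular defects.

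Few genes passed the test. Of 10952 genes tested, 19 differed between het and wt at an adjusted p under 0.05 (edgeR's quasi-likelihood test with Benjamini-Hochberg adjustment, used for every adjusted p below), which is 0.173% of the genes. Of these, 14 (0.128%) were higher and 5 (0.0457%) were lower in het, and 13 differed at least 2-fold. At an unadjusted p under 0.05 there were 893 genes, or 8.15%. The smallest difference called was 1.38-fold, and the median standard error of a log2 fold change was 0.46 among the 3651 genes with the lowest level and 0.15 among the 3651 with the highest. The 1.38-fold difference belonged to a gene with a standard error of 0.09, so it is not a detection limit for most genes. Larger differences also went uncalled, such as a log2 difference of -1.06 ± 0.23 in Jag1 (adjusted p = 0.0633). With only 2 libraries a group, both het libraries lay above both wt libraries for 19.2% of all genes and below them for 18.8%, and any count of members without overlap below is to be read against those shares. The labels do not say whether the libraries of a group came from separate embryos or litters, so the p-values measure the spread between these libraries.

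The 4 libraries held 1537908 to 3165552 counts. Counts of the libraries of a group differed by more than sampling noise, so none was the same library counted again. Whether libraries of a group were prepared from the same RNA cannot be told from this. The library het2 stood apart from the others: on the first principal component of these 4, which took 46.4% of the variance, it lay at -41.1, against 0.987 for het3, 24.4 for wt4 and 15.7 for wt5. Across genes het3 was closer to wt4 (r = 0.960) and wt5 (r = 0.957) than to het2 (r = 0.949). In het2 the 14 macrophage markers summed to 400 CPM, against 62.9, 144 and 129 CPM in wt4, wt5 and het3. The 6 platelet markers summed to 157 CPM in het2 and to 13.3 to 22.1 CPM in the other 3 libraries. The KO libraries differ in makeup: Lars2, a mitochondrial leucyl-tRNA synthetase gene, took 16.3% to 17.1% of the counts in the 4 wt and het libraries and 0.0572% and 0.0611% in KO1 and KO2. KO against wt, which shares the wt libraries with het against wt, called 3509 genes (32%).

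Dll4 (ENSMUSG00000027314, GRCm38 chr2:119325784-119335962, plus strand) checks the genotype labels. Its level was 196 and 183 CPM in wt4 and wt5 (CPM, counts scaled by the library size and its TMM factor), 81.2 and 85.9 CPM in het2 and het3, and 19.4 and 13.7 CPM in KO1 and KO2. The 3 genotypes did not overlap, and each het library lay well under either wt library. Dll4 fell to 44.1% of its wt mean, by 1.18 ± 0.15 (SE) on the log2 scale, adjusted p = 0.000735. The counts cover the whole gene, and which exons the floxed allele loses is not given in the sources used here.

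Gja5 (ENSMUSG00000057123, chr3:96904693-97077416), which encodes connexin 40, the gap-junction protein typical of arterial endothelium, was at 197 and 182 CPM in wt and at 57.0 and 78.9 CPM in het. Both het libraries were low, with no overlap. It fell by 1.45 ± 0.18 on the log2 scale, adjusted p = 0.000735, to 35.9% of wt. In KO1 and KO2 its level was 6.88 and 11 CPM. Part of the annotated Gja5 transcript also lies in transcripts of its neighbour Zfp697, whose level was 4.43 to 12.1 CPM in the 4 libraries.

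**Figure D1:**
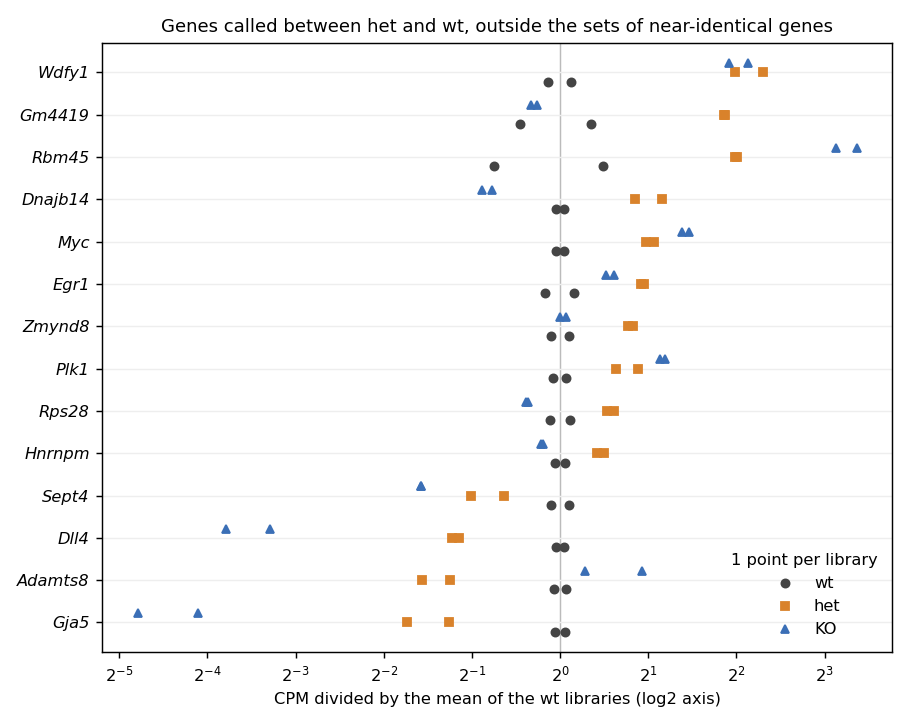
The 14 genes called between het and wt outside the 4 sets of near-identical genes, 1 point per library, as CPM divided by the mean of wt4 and wt5 on a log2 axis (circles wt, squares het, triangles KO). In each of these genes the squares lie to one side of both circles, while the triangles lie on either side.

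Myc (ENSMUSG00000022346, chr15:61985391-61990374), a transcription factor that promotes growth and proliferation, moved the other way. It was at 60.4 and 56.3 CPM in wt and 115 and 122 CPM in het, and at 152 and 161 CPM in KO. It rose by 1.02 ± 0.14 on the log2 scale in het, adjusted p = 0.00113. The het libraries lay between the wt and the KO libraries. How many of all genes have het between wt and KO was not counted, and the KO libraries differ in makeup. Here and below, such a position is therefore only described.

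Egr1 (ENSMUSG00000038418, chr18:34859823-34864984), an immediate early transcription factor induced by growth factors through ERK, rose as well. Its level was 83.1 and 104 CPM in wt, 177 and 181 CPM in het, and 143 and 134 CPM in KO. The difference between het and wt was 0.95 ± 0.14 on the log2 scale, adjusted p = 0.00113. For Egr1 the het libraries were the highest of the 6.

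The other genes called lower in het, leaving aside Eif3j1 (described below with its copy), were Sept4 and Adamts8. Sept4 (chr11:87568903-87590539), a member of the septin family of filament-forming GTPases, was at 207 and 180 CPM in wt, 96.1 and 125 CPM in het and 64.9 and 65.0 CPM in KO, and fell by 0.79 ± 0.14 on the log2 scale (adjusted p = 0.0130). Adamts8 (chr9:30942562-30963838), a secreted metalloprotease, was at 39.0 and 35.4 CPM in wt and 15.7 and 12.6 CPM in het, and fell by 1.44 ± 0.28 (adjusted p = 0.0368). Both het libraries were below both wt libraries for either gene. In KO1 and KO2 Adamts8 was above the wt libraries, at 70.9 and 45.3 CPM. A stretch of 327 of the 3631 bases of its transcript matches the antisense RNA Gm29724 at 98.5%, which was not analysed here.

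Among the genes called higher, Wdfy1 (chr1:79702262-79776143), a protein of early endosomes, had the largest difference of those detected in both wt libraries. Its level was 11.6 and 13.9 CPM in wt, 62.7 and 50.3 CPM in het and 55.7 and 48.2 CPM in KO. Het and KO libraries lay in the same range, and the het difference was 2.14 ± 0.24 on the log2 scale (adjusted p = 0.000109). Rbm45 (chr2:76369984-76383768), an RNA-binding protein gene, was at 5.99 and 2.53 CPM in wt and at 17.1 and 16.8 CPM in het (log2 difference 1.89 ± 0.37, adjusted p = 0.0368), and at 43.8 and 37.3 CPM in KO. Plk1 (chr7:122159439-122169873), the kinase that drives entry into and progress through mitosis, was at 73.2 and 81.0 CPM in wt, 142 and 120 CPM in het and 176 and 169 CPM in KO, and rose by 0.76 ± 0.14 (adjusted p = 0.0193). For Rbm45 and Plk1 the het libraries again lay between wt and KO.

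In 5 further genes, as in Egr1, the het libraries were the highest of the 6. Dnajb14 (chr3:137867675-137916557), a chaperone partner in the endoplasmic reticulum membrane, was at 56.9 and 60.7 CPM in wt, 106 and 131 CPM in het and 31.9 and 34.3 CPM in KO, and rose by 1.03 ± 0.16 on the log2 scale in het (adjusted p = 0.00465). Zmynd8 (chr2:165784152-165899016), a reader of histone marks, was at 78.3 and 89.9 CPM in wt, 143 and 149 CPM in het and 84.0 and 88.0 CPM in KO, a rise in het of 0.81 ± 0.14 (adjusted p = 0.0100). Rps28 (chr17:33819027-33824562), a protein of the small ribosomal subunit, was at 188 and 220 CPM in wt, 311 and 294 CPM in het and 158 and 156 CPM in KO (log2 difference in het 0.57 ± 0.11, adjusted p = 0.0358). Hnrnpm (chr17:33646233-33686860), a splicing regulator, was at 482 and 524 CPM in wt, 674 and 710 CPM in het and 434 and 441 CPM in KO, and had the smallest difference called, 0.46 ± 0.09 (adjusted p = 0.0420). For both, het2 and het3 were close to each other and no other library reached them. A processed pseudogene, Gm10263, matches Rps28 at 99.0% over 300 of 382 bases and had 0 CPM in all 6 libraries. Part of the Hnrnpm transcript lies in annotated transcripts of March2. The antisense RNA Gm4419 (chr12:21417323-21421064) was at 7.28 and 12.7 CPM in wt, 36.3 and 36.6 CPM in het and 7.92 and 8.31 CPM in KO (log2 difference in het 1.92 ± 0.32, adjusted p = 0.00665). The library kit does not mark strand, so its reads cannot be told apart from those of any gene on the other strand.

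Leaving out the library wt4 ended most calls. Without it, edgeR, which then assumes that the lone wt library varies as the other groups do, called 2 genes, and of the 19 only the pseudogene Gm9855 remained called. The adjusted p was then 0.0859 for Dll4, Gja5 and Myc, 0.205 for Egr1 and 0.0707 for Wdfy1, with log2 differences of -1.13, -1.40, 1.07, 0.78 and 1.99. Over all alternatives tried, the adjusted p ran from 1.67e-11 to 0.0859 for Dll4, from 1.01e-16 to 0.0859 for Gja5, from 9.5e-08 to 0.0859 for Myc, from 1.62e-08 to 0.205 for Egr1 and from 7.01e-14 to 0.0707 for Wdfy1. Leaving out wt4 was the one alternative under which each of these 5 lost its call. Without wt5, 9 of the 19 stayed called, without het2 13, and without het3 14, among 76 genes then called. limma-voom kept 7, and Adamts8, Dnajb14, Plk1, Rbm45, Rps28, Sept4, Zmynd8, Hnrnpm and Gm4419 were among those it did not call.

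The remaining 5 calls, Eif3j1 and 4 processed pseudogenes, belong to genes that have a near-identical copy with counts elsewhere in the genome, to which the same reads can be assigned. The 90-base stretches below, from the Tdg coding sequence in GRCm38 and the matching stretches of its copies, show how little tells such copies apart; capitals mark the bases that differ from Tdg, 4 in Gm9855 (chr10:42054166-42054255, minus strand) and 3 in Tdg-ps (chr15:82517535-82517624, plus strand), against Tdg at chr10:82648578-82648667, plus strand.
Tdg: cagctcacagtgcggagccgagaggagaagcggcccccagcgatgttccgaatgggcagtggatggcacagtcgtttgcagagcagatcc
Gm9855: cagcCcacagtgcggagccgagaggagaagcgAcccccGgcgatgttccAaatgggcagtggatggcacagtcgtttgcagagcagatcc
Tdg-ps: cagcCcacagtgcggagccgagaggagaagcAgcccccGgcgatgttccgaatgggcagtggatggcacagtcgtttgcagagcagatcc

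Tdg encodes thymine DNA glycosylase, an enzyme of base excision repair and DNA demethylation. Gm9855 (chr10:42054113-42055306) matches it at 99.2% over 1194 bases and Tdg-ps (chr15:82516311-82519278) at 98.7% over 2968 bases. Gm9855 had 0 counts in wt4 and wt5 and 20.7 and 20.9 CPM in het2 and het3, at least 27.2-fold higher than the 0.766 CPM that 3 counts over both wt libraries stand for (adjusted p = 2.36e-05), and 21.7 and 23.4 CPM in KO. Tdg-ps had 0 counts in wt and 6.41 and 6.28 CPM in het (adjusted p = 0.0130), and 10 and 10.2 CPM in KO. Both pseudogenes had no counts in the wt libraries and were at like levels in both het libraries. Tdg itself was at 97.2 and 138 CPM in wt and at 83.3 and 82.0 CPM in het. The 3 summed to 97.2 and 138 CPM in wt and 110 and 109 CPM in het, a log2 difference of -0.08 ± 0.15 (adjusted p = 0.924). Tdg-ps was small beside Tdg, so this sum could not show whether Tdg-ps itself changed.

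In the other 3 sets too, the summed level did not pass. Eif3j1 (chr2:122028546-122056598), a gene of the j subunit of translation initiation factor eIF3, was at 78.8 and 86.7 CPM in wt, 39.2 and 33.5 CPM in het and 6.62 and 8.31 CPM in KO. Its copy Eif3j2 is alike at 99.4% over 2379 of the 5413 bases of the Eif3j1 transcript. Eif3j2 was at 56.1 and 77.2 CPM in wt, 107 and 92.8 CPM in het and 91.8 and 104 CPM in KO. Eif3j1 alone was called lower (-1.20 ± 0.20 on the log2 scale, adjusted p = 0.00665), while the sum, 135 and 164 CPM in wt and 146 and 126 CPM in het, differed by -0.14 ± 0.14 (adjusted p = 0.850). One member of the pair was low and the other high in het, and the sums of wt and het overlapped. In KO1 and KO2 the sum was 98.4 and 112 CPM, below both wt libraries. Gm7334 (chr17:50698688-50699443) is identical over 756 bases to Btg3, an antiproliferative gene. It had 0 counts in wt and KO and 67.7 and 31.4 CPM in het (at least 56.6-fold higher, adjusted p = 0.00171), while Btg3 was at 93.3 and 86.7 CPM in wt and 16.4 and 52.0 CPM in het. Their sums, 93.3 and 86.7 CPM in wt and 84.0 and 83.4 CPM in het, differed by -0.11 ± 0.15 (adjusted p = 0.890). The library with more Gm7334 was the one with less Btg3. Gm6768 (chr12:119260978-119262855), alike at 99.9% over 1878 bases to Ncoa4, the receptor for ferritin turnover, had 0 counts in wt and 8.55 and 13.3 CPM in het (at least 15.3-fold higher, adjusted p = 0.00113). Ncoa4 itself was at 101 and 124 CPM in wt and 125 and 101 CPM in het, with overlap. Ncoa4 with Gm6768 summed to 101 and 124 CPM in wt and 133 and 114 CPM in het (0.13 ± 0.14, adjusted p = 0.855). Gm6768 was small beside Ncoa4, so this sum could not show whether Gm6768 itself changed. In KO1 and KO2 Gm6768 was at 25.6 and 40 CPM. With the copies of each set summed before the fit, an alternative chosen after seeing the data, 13 genes were called, 9 higher and 4 lower, and 13 of the 14 genes described before them kept their call. Hnrnpm lost it. The partner genes Eif3j2, Btg3, Tdg and Ncoa4 were chosen for naming after their values were seen.

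**Figure D2:**
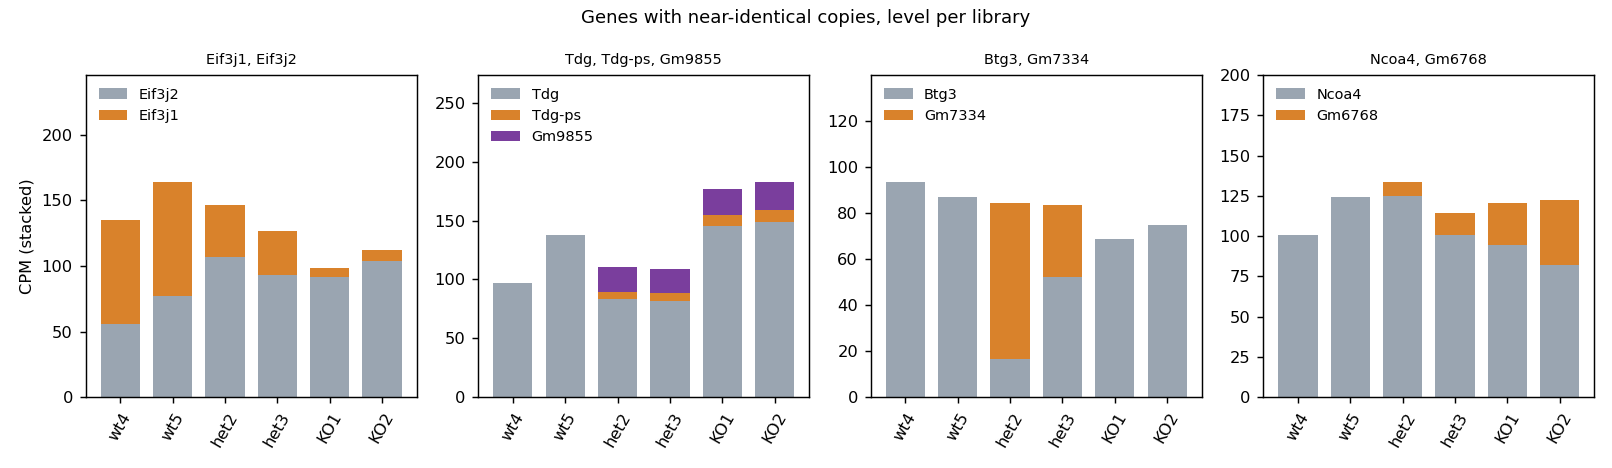
Levels in CPM, stacked, of the 4 sets of near-identical genes in each of the 6 libraries (grey for the gene that was not called, orange and purple for the copies that were). The orange and purple parts differ between wt and het while the stacks of wt and het overlap or differ by little, as for Btg3 with Gm7334 at 93.3 and 86.7 CPM in wt and 84.0 and 83.4 CPM in het.

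Notch signalling genes other than Dll4 did not pass. Of 6 tested Notch ligands and receptors none was called (0 of 6, against 0.173% of all genes), nor was any of 19 genes of the signalling machinery or of 7 tested targets, and the medians of their log2 differences were 0.11, 0.00 and 0.01, against 0.01 over all genes. With single libraries left out these medians ran from -0.14 to 0.23, from 0.00 to 0.08 and from -0.11 to 0.14. Jag1, another Notch ligand of endothelium, came nearest: it was at 43.7 and 51.9 CPM in wt and 24.9 and 21.3 CPM in het, a log2 difference of -1.06 ± 0.23 (adjusted p = 0.0633), and at 31.8 and 37.2 CPM in KO. Both het libraries were below both wt libraries and below both KO libraries. The ligands Dll1 (5.14 and 6.96 CPM in wt, 10.7 and 10.1 CPM in het) and Jag2 (74.5 and 71.5 CPM in wt, 62.0 and 110 CPM in het) had adjusted p = 0.677 and 0.836. Of the receptors, Notch1 was at 405 and 330 CPM in wt and 343 and 321 CPM in het and Notch4 at 260 and 242 CPM in wt and 224 and 253 CPM in het, with overlap in both. The other two receptors had few counts: Notch2 was at 3.42 and 2.53 CPM in wt and 8.55 and 4.19 CPM in het (log2 difference 0.98 ± 0.74, adjusted p = 0.759), and Notch3, not tested, at 1.28 and 1.27 CPM in wt and 3.56 and 4.89 CPM in het. In Notch2 and Notch3 both het libraries were above both wt libraries.

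The target genes did not move together. Hes1, a repressor induced by Notch and by other signals, was at 98.5 and 96.8 CPM in wt and 184 and 129 CPM in het, and at 49.2 and 50.4 CPM in KO. Both het libraries were above wt and both KO libraries below it; the het difference was 0.66 ± 0.16 on the log2 scale, adjusted p = 0.101. Hey1, the repressor linked with arterial endothelium, was at 114 and 120 CPM in wt, 86.2 and 91.1 CPM in het and 26.2 and 21.5 CPM in KO, with a het difference of -0.39 ± 0.15 (adjusted p = 0.461). Its relative Hey2 was at 12.0 and 12.0 CPM in wt and at 5.70 and 4.19 CPM in het, on 8 and 12 counts in the het libraries (adjusted p = 0.382). Bcl6b was at 240 and 240 CPM in wt and 256 and 281 CPM in het, and Nrarp, a feedback inhibitor of Notch, at 188 and 148 CPM in wt and 157 and 158 CPM in het. Among the machinery genes, Poglut1, which puts glucose on Notch receptors, was at 44.5 and 54.4 CPM in wt and 27.1 and 40.5 CPM in het (adjusted p = 0.565). Rbpj itself was at 41.5 and 43.0 CPM in wt and 53.4 and 51.3 CPM in het (adjusted p = 0.711).

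Arterial genes were mostly below wt in het, with 1 of 24 tested members called, Gja5. Both het libraries were below both wt libraries in 14 of the 24 and above them in 0, against 18.8% and 19.2% of all genes, and the list's median log2 difference was -0.27. This median ran from -0.48 to -0.27 when single libraries were left out. The list was chosen with earlier results of these data known and holds Gja5, so these counts describe it and test nothing. Its median in KO against wt, which shares the wt libraries, was -1.19. Slc45a4, a solute carrier, was at 96.7 and 98.7 CPM in wt, 57.0 and 57.6 CPM in het and 11.2 and 12.6 CPM in KO (het difference -0.77 ± 0.17, adjusted p = 0.0701). Gja4, the gene of connexin 37, was at 244 and 266 CPM in wt, 158 and 183 CPM in het and 45.5 and 57.8 CPM in KO (-0.57 ± 0.13, adjusted p = 0.0919). Tm4sf1, a membrane protein of endothelial cells, was at 345 and 418 CPM in wt, 296 and 220 CPM in het and 221 and 245 CPM in KO (-0.57 ± 0.14, adjusted p = 0.156). In each of these 3 the groups wt and het did not overlap, and in Slc45a4 and Gja4 het lay between wt and KO. The 2 arterial genes with the most counts, Igfbp3, an IGF-binding protein, and Ptp4a3, a phosphatase, were at 1201 and 957 and at 1182 and 1017 CPM in wt, and at 856 and 863 and at 890 and 955 CPM in het, with adjusted p = 0.307 and 0.436.

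Further arterial genes with known roles, named after their values were seen, did not pass either. Vegfc, a growth factor of vessels and lymphatics, was at 88.2 and 92.4 CPM in wt, 66.2 and 46.4 CPM in het and 11.6 and 16.3 CPM in KO (het difference -0.72 ± 0.20, adjusted p = 0.206). Cxcr4, the chemokine receptor used by arterial precursors, was at 93.3 and 74.0 CPM in wt, 53.4 and 57.9 CPM in het and 2.34 and 4.41 CPM in KO (-0.59 ± 0.20, adjusted p = 0.371). Both het libraries of these 2 genes were below wt and far above KO. Unc5b, a netrin receptor, was at 286 and 257 CPM in wt, 231 and 231 CPM in het and 42.9 and 38.2 CPM in KO, and Efnb2, the arterial ephrin, at 276 and 273 CPM in wt, 263 and 238 CPM in het and 154 and 123 CPM in KO. Their het differences were -0.24 ± 0.11 and -0.14 ± 0.12, with adjusted p = 0.611 and 0.812.

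**Figure D3:**
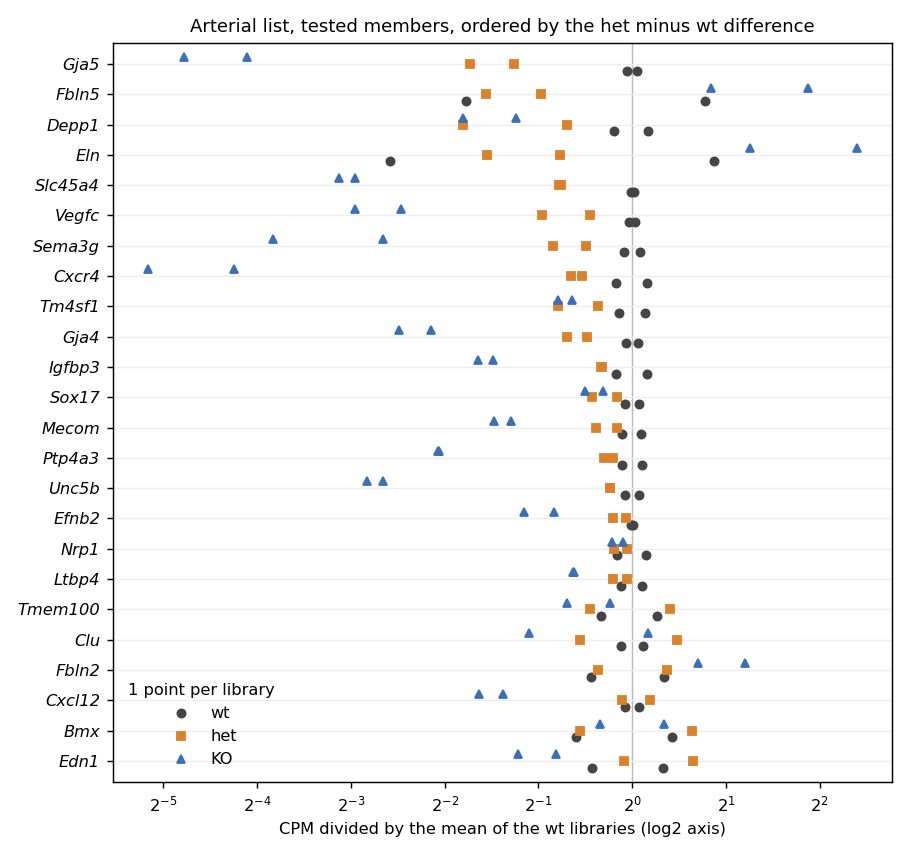
The 24 tested arterial genes, 1 point per library, as CPM divided by the mean of wt4 and wt5 on a log2 axis (circles wt, squares het, triangles KO), ordered from the lowest to the highest het minus wt difference. In 14 genes both squares lie left of both circles, and in none do both lie right of them.

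No venous, tip-cell, capillary or endocardial gene was called. Of 8 tested venous and plexus genes, all 8 had a log2 difference below 0, with both het libraries below wt in 3 and above in 0. Their median log2 difference was -0.09 (-0.22 to -0.02 with single libraries left out). Nr2f2, the transcription factor of venous identity, named after its values were seen, was at 61.6 and 46.8 CPM in wt and 47.7 and 53.0 CPM in het. Among 14 tip-cell genes the median was -0.07 (-0.09 to 0.06 with single libraries left out), with both het libraries above wt in 4 and below in 6. Esm1, a secreted proteoglycan of tip cells, was at 47.9 and 36.7 CPM in wt, 22.1 and 29.7 CPM in het and 15.3 and 12.0 CPM in KO (adjusted p = 0.405), and Cd34, a surface sialomucin, at 1384 and 1462 CPM in wt and 1080 and 1313 CPM in het (adjusted p = 0.444). Both were lower in each het library than in either wt library. Other tip-cell genes lay the other way: Trp53i11 was at 319 and 306 CPM in wt and 355 and 386 CPM in het (adjusted p = 0.558), and Kcne3, a potassium channel subunit, at 115 and 88.6 CPM in wt and 179 and 114 CPM in het (adjusted p = 0.589). Of 10 tested capillary and lipid-handling genes, 6 had both het libraries below wt and 1 above, with a median of -0.24 (-0.43 to -0.10 with single libraries left out). Cd36, the fatty acid translocase, was at 503 and 487 CPM in wt and 355 and 437 CPM in het (adjusted p = 0.382), and Cav1, which forms caveolae, at 2856 and 2752 CPM in wt and 1986 and 2601 CPM in het (adjusted p = 0.489). For both, het2 was the lower library. The 11 tested endocardial genes had a median of 0.36, but the median of het2 minus het3 over the same genes was 1.09, and with single libraries left out the list's median went from -0.40 to 0.92. Npr3, a natriuretic peptide receptor of endocardium named after its values were seen, was at 13.3 and 20.2 CPM in wt and at 89.0 and 13.6 CPM in het.

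The defining markers of the labelled cell type were present in all libraries and near their wt level in het. Cdh5, the VE-cadherin gene, was at 1981 and 1928 CPM in wt and 1808 and 1910 CPM in het, and Pecam1, which encodes CD31 and is named as the sorting marker, at 834 and 818 CPM in wt and 716 and 752 CPM in het (adjusted p = 0.875 and 0.661). In KO1 and KO2 Cdh5 was lower, at 421 and 381 CPM, while Pecam1 was at 844 and 892 CPM. None of the 21 tested members was called and their median was -0.13, with both het libraries below wt in 8 and above in 1. In bulk RNA, fewer cells of a kind and less RNA per cell cannot be told apart, here and in every list above.

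Immediate early genes and feedback regulators of ERK were mostly at or above wt in het, though Egr1 was the only one called. Of 20 tested immediate early genes, 12 had both het libraries above wt and 2 below, with a median log2 difference of 0.30 (0.18 to 0.47 with single libraries left out). Junb, a subunit of the AP-1 factor, was at 107 and 151 CPM in wt and 251 and 192 CPM in het, and at 142 and 175 CPM in KO (het difference 0.79 ± 0.19, adjusted p = 0.214). The nuclear receptor gene Nr4a1 was at 24.0 and 32.3 CPM in wt and 89.0 and 48.9 CPM in het (1.26 ± 0.35, adjusted p = 0.347). Fos, the partner of Jun proteins, was at 195 and 221 CPM in wt and 382 and 224 CPM in het (0.52 ± 0.30, adjusted p = 0.723). In each of these 3 genes het2 was higher than het3, whereas Egr1 was level in both. Of 13 ERK feedback genes none was called, 8 had both het libraries above wt and 0 below, and the median was 0.31 (0.18 to 0.31 with single libraries left out). Ier3, an early response gene induced by ERK, was at 63.4 and 70.2 CPM in wt and 145 and 90.7 CPM in het (0.79 ± 0.20, adjusted p = 0.187). Spry2, an inhibitor of receptor tyrosine kinase signalling named after its values were seen, was at 15.4 and 16.5 CPM in wt, 24.9 and 23.0 CPM in het and 4.16 and 2.88 CPM in KO (adjusted p = 0.678).

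Among 11 tested genes of the Myc and Max network, Myc was called, 6 had both het libraries above wt and 1 below, and the median was 0.42 (0.22 to 0.51 with single libraries left out). Mycn, a Myc relative, was at 34.7 and 39.9 CPM in wt, 47.7 and 51.0 CPM in het and 88.4 and 74.3 CPM in KO (adjusted p = 0.575). Mxd4, whose protein competes with Myc for Max, was at 95.5 and 106 CPM in wt, 79.8 and 75.4 CPM in het and 32.5 and 25.3 CPM in KO (adjusted p = 0.548). Neither Mycn nor Mxd4 passed, and in both het lay between wt and KO. Of textbook Myc targets in polyamine synthesis, Odc1, the rate-limiting enzyme, was at 442 and 521 CPM in wt, 721 and 639 CPM in het and 1287 and 1564 CPM in KO (het difference 0.50 ± 0.11, adjusted p = 0.0903). Sat1, the enzyme that starts polyamine breakdown, was at 406 and 428 CPM in wt, 330 and 287 CPM in het and 99.9 and 93.3 CPM in KO (-0.44 ± 0.11, adjusted p = 0.101). Neither passed, and wt and het did not overlap in either. None of the 19 tested polyamine and nucleotide genes was called, and their median was 0.08 (0.01 to 0.13). Both het libraries were above wt in 6 of them and below in 5. Of the 7 polyamine genes alone, 5 had a log2 difference below 0, Sat1 among them, and the median was -0.11. In those 7, both het libraries were above wt in 2 and below in 4.

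Cytosolic ribosomal protein genes lay on the higher side in het. Of 77 tested, 1 was called, Rps28, and both het libraries were above wt in 33 and below in 0. At an unadjusted p under 0.05, 27 were higher in het and 0 lower, against 474 and 419 of all 10952 genes. The median log2 difference of the list was 0.20. It ran from 0.09 to 0.30 when single libraries were left out. The list also moved between replicates by as much: the median difference was 0.20 between het2 and het3 and -0.23 between wt4 and wt5. Rpl38, of the large subunit, was at 124 and 160 CPM in wt, 245 and 203 CPM in het and 143 and 153 CPM in KO (het difference 0.66 ± 0.14, adjusted p = 0.0531). Rpl37 was at 167 and 202 CPM in wt and 292 and 245 CPM in het, and Rps24 at 162 and 192 CPM in wt and 279 and 221 CPM in het (adjusted p = 0.0919 and 0.147). Of the 2 with the most counts, Rps2 was at 1332 and 1405 CPM in wt and 1510 and 1384 CPM in het, and Rplp0 at 1184 and 1304 CPM in wt and 1300 and 1142 CPM in het. Those 2 overlapped between the groups. Many ribosomal protein genes have processed pseudogenes, so their single values are uncertain. Among 51 ribosome biogenesis genes none was called, 19 had both het libraries above wt and 4 below, and the median was 0.13 (0.05 to 0.18 with single libraries left out). Ppan, a factor of large subunit assembly, was at 25.3 and 25.3 CPM in wt and 39.2 and 45.4 CPM in het (0.76 ± 0.22, adjusted p = 0.225). Of 38 translation initiation genes, Eif3j1 alone was called, with the reservation on its copy given above. Eif2s2, a subunit of eIF2, was at 342 and 346 CPM in wt, 442 and 428 CPM in het and 166 and 189 CPM in KO (adjusted p = 0.272).

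Mitotic genes were level with or above wt. Of 43 tested, Plk1 was called, 19 had both het libraries above wt and 0 below, and the median log2 difference was 0.17 (0.09 to 0.27 with single libraries left out). Cdca2, a chromatin-bound mitotic regulator, was at 33.0 and 31.0 CPM in wt, 46.3 and 49.6 CPM in het and 70.8 and 65.5 CPM in KO (het difference 0.59 ± 0.19, adjusted p = 0.336). Kif23, a kinesin of cytokinesis, was at 55.7 and 51.9 CPM in wt, 77.6 and 74.7 CPM in het and 122 and 99.7 CPM in KO (adjusted p = 0.360). In both genes het lay between wt and KO. The most counted members, Top2a and Ccna2, were at 444 and 361 and at 314 and 269 CPM in wt and at 418 and 480 and at 272 and 329 CPM in het, with overlap. Among 44 DNA replication genes none was called, 11 had both het libraries above wt and 1 below, and the median was 0.12 (0.05 to 0.16). Mcm7, a subunit of the replicative helicase, was at 129 and 118 CPM in wt and 160 and 155 CPM in het (adjusted p = 0.404), while Pcna was at 271 and 268 CPM in wt and 281 and 266 CPM in het (adjusted p = 0.984). None of 21 tested G1 cyclins and cell cycle inhibitors was called. Ccnd1, the D-type cyclin of G1, was at 156 and 137 CPM in wt and 180 and 192 CPM in het (adjusted p = 0.382). Ccng1, a p53-induced cyclin, was at 51.8 and 75.9 CPM in wt and 39.9 and 43.3 CPM in het (adjusted p = 0.378). The septin list, to which Sept4 belongs, had no other member called among its 10 tested, and its median was -0.03 (-0.19 to 0.00). Sept2 was at 420 and 441 CPM in wt and 365 and 363 CPM in het (adjusted p = 0.504), and Sept11 at 387 and 370 CPM in wt and 371 and 378 CPM in het (adjusted p = 0.983).

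**Figure D4:**
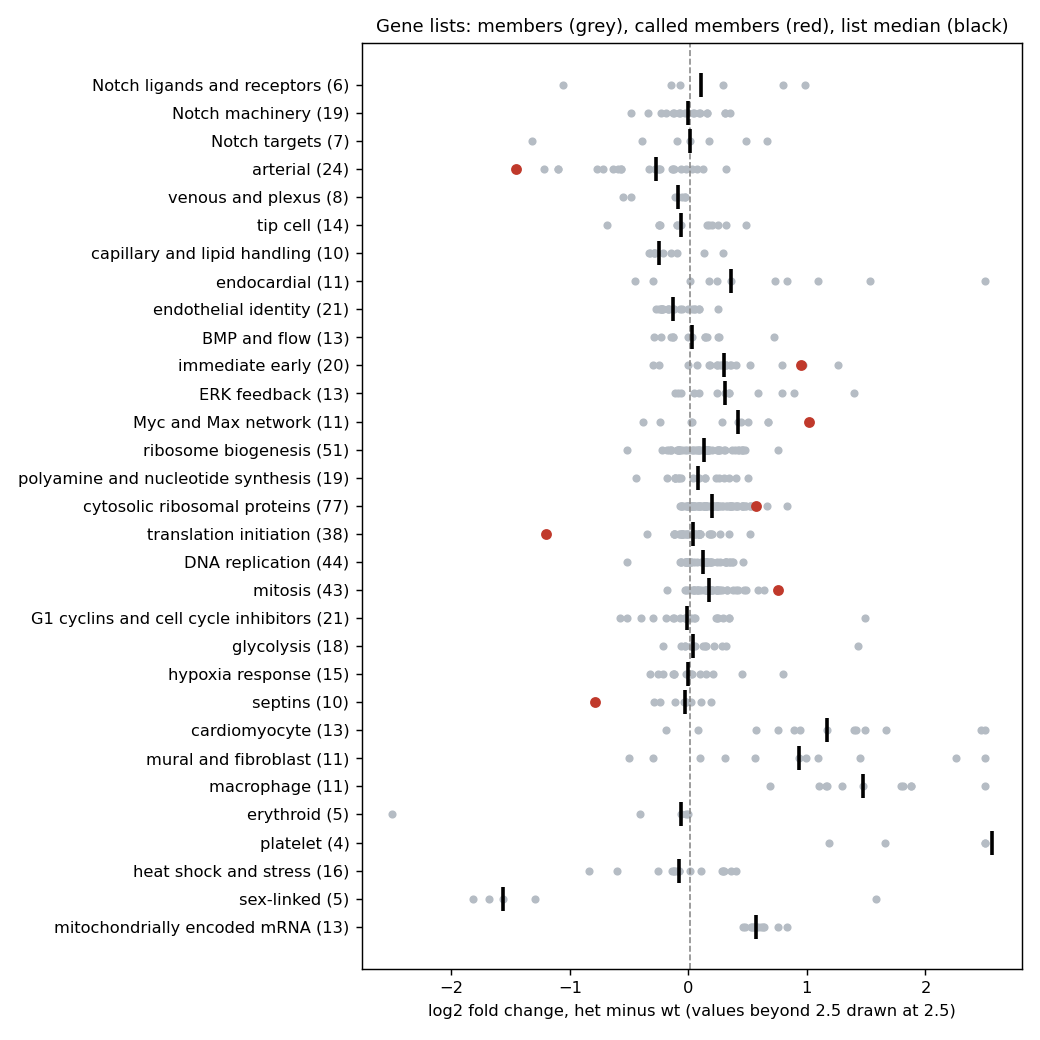
Log2 fold change of het against wt for each tested member of the gene lists (number of tested members in brackets), with members called in red, the list's median as a black bar and the median of all genes as a dashed line. At most 1 member of any list was called, and lists of cardiomyocyte, mural and fibroblast, macrophage and platelet markers have medians at or above 0.93. These medians cover only members that passed the filter on low counts, which het libraries alone can satisfy.

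Markers of some other cell types were higher in het and those of others overlapped, and their part in the results was not tested. Summed erythroid markers were at 417 and 146 CPM in wt and 118 and 379 CPM in het. Summed epicardial markers were at 110 and 118 CPM in wt and 107 and 123 CPM in het, and lymphatic ones at 10.3 and 20.2 and at 33.5 and 10.8 CPM. Of 13 tested cardiomyocyte markers, 9 had both het libraries above wt and 1 below, and the median log2 difference was 1.17. The filter on low counts admits a gene with enough counts in het alone. Medians over the tested markers of these lists can therefore lean upward. The summed level of the list of 22 was 416 and 380 CPM in wt and 519 and 444 CPM in het, and 0 of the 22 were at 0 in all 4 libraries. Tnnt2, cardiac troponin T, was at 11.1 and 12.0 CPM in wt and 29.2 and 31.4 CPM in het (1.40 ± 0.31, adjusted p = 0.0769), and Myh6, cardiac myosin, at 0.428 and 0.633 CPM in wt and 9.26 and 4.54 CPM in het. Both het libraries were the higher ones for both genes. Of 11 tested mural and fibroblast markers, 5 were above wt in both het libraries and 2 below, with a median of 0.93 (0.44 to 1.63 with single libraries left out), and the list of 17 summed to 443 and 440 CPM in wt and 476 and 612 CPM in het. Postn, a matrix protein of valve and fibroblast cells, was at 20.1 and 30.4 CPM in wt and 74.1 and 62.5 CPM in het (1.45 ± 0.28, adjusted p = 0.0567), and Col1a1, fibrillar collagen, named after its values were seen, at 9.85 and 15.2 CPM in wt and 46.3 and 68.8 CPM in het (adjusted p = 0.690). Fitted on wt and het libraries alone, 22 genes were called, among them Postn (adjusted p = 0.00145), Col1a1 (4.09e-05), Tnnt2 (0.0427) and Slc45a4 (0.0469), while 15 of the 19 kept their call. The summed macrophage and platelet markers were highest in het2, as given above. Of 11 tested macrophage markers, 5 had both het libraries above wt: Fcgr3, an Fc receptor, was at 1.28 and 1.90 CPM in wt and 17.8 and 5.58 CPM in het (adjusted p = 0.231), and Cd68, a lysosomal protein of macrophages, at 4.71 and 7.59 CPM in wt and 22.1 and 12.2 CPM in het (adjusted p = 0.510). The list's median, 1.47, ran from 0.27 to 2.44 with single libraries left out. Without het2, 13 of the 19 genes stayed called, Dll4, Gja5, Myc, Egr1 and Wdfy1 among them.

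Sex-linked genes differed as well. Xist, expressed from the inactive X of female cells, was at 62.5 and 110 CPM in wt and 279 and 229 CPM in het (1.58 ± 0.28 on the log2 scale, adjusted p = 0.178). The Y-linked gene Uty was at 15 and 8.86 CPM in wt and 2.14 and 4.19 CPM in het, and Eif2s3y at 21.4 and 9.49 CPM in wt and 2.14 and 7.33 CPM in het. Each library held both Xist and Y-linked counts, with more Xist and fewer Y-linked counts in het. None passed the test, and the share of each sex in a library cannot be told apart from genotype in this design. Mitochondrially encoded mRNAs took 1.18% and 1.78% of counts in wt and 1.48% and 2.82% in het, so that library het3 had the highest share.

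Dll4 lies on chromosome 2, and 4 of the 19 called genes do: Dll4, Eif3j1, Rbm45 and Zmynd8. Chromosome 2 held 891 of the tested genes (8.14%). Eif3j1 lies 2.69 Mb from Dll4, Rbm45 42.9 Mb and Zmynd8 46.4 Mb. Within 5 Mb of Dll4, Dll4 left out, 78 genes were tested, of which 1 was called and 14 (17.9%) had an unadjusted p under 0.05, against 9.32% over chromosome 2 and 8.15% of all genes. Within 10 Mb the share was 13.8% of 138 genes. Both directions occurred in the 5 Mb window, with both het libraries above wt in 17 genes and below in 14. Tmem87a, a Golgi membrane protein gene 1.02 Mb from Dll4, was at 4.28 and 5.06 CPM in wt, 14.2 and 17.1 CPM in het and 38.6 and 52.6 CPM in KO (het difference 1.79 ± 0.37, adjusted p = 0.0531). Chac1, a glutathione-degrading enzyme gene 0.0153 Mb from Dll4, was at 0.428 and 1.90 CPM in wt and 8.55 and 8.38 CPM in het (adjusted p = 0.163), on 1 and 3 counts in wt. Tmem87a and Chac1 were chosen for naming after their values were seen. Neighbouring genes of one chromosome are not independent of each other.

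Because RBPJ is the DNA-binding partner of Notch, the 250 bases upstream to 50 bases downstream of gene starts (RefSeq, GRCm38.p6) were searched on both strands for its core TGGGAA and for the Myc E-box CACGTG. The RBPJ core was in 28.3% of all 27025 promoters, in 5 of 18 (27.8%) tested arterial genes with a promoter in the table, in 4 of the 8 of 14 genes called higher that have a promoter in the table (Plk1, Zmynd8, Dnajb14 and Rbm45), and in 0 of the 4 of 5 called lower that have one. CACGTG was in 8.09% of all promoters, in 0 of 18 arterial genes, in 1 of the same 8 called higher, Hnrnpm, and in 0 of the same 4 called lower. The promoter of Gja5, the arterial gene that fell, is shown as the 250 bases before its start (chr3:97032152-97032401, plus strand), in lower case throughout because neither motif lies in it.
Gja5: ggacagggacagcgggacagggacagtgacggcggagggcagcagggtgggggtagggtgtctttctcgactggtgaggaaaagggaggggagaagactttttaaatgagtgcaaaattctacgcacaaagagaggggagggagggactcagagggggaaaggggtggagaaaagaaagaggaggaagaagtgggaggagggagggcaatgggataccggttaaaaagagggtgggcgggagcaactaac
These counts describe letters in a short window and say nothing of factor binding.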

How the data were processed

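Total RNA of the sorted cells went through SMART-Seq v4 amplification and Nextera XT library preparation, per the labels' protocols, which disagree on single or paired reads. The authors deposited expected counts, RSEM's estimates of how many reads each gene received, in 1 table for 6 libraries. The submitters' processing notes name CASAVA, cutadapt, RSEM and the build GRCm38, with no versions. Reads that match several genes are split between them by RSEM, so near-identical genes have uncertain values. Symbols and positions came from GENCODE M21 (GRCm38), which matched 97.7% of 41214 identifiers.

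Counts were rounded. The test was edgeR 4.0.16 in R 4.3.3, with TMM factors, filterByExpr (minimum count 10) and a robust quasi-likelihood fit of all 6 libraries, which leaves 3 residual degrees of freedom, with two-sided tests and Benjamini-Hochberg adjustment over 10952 genes. CPM use the TMM-scaled library sizes. Standard errors were derived from the test, as the absolute log2 difference divided by the square root of the test's F statistic. They are not separate estimates of spread. Totals of the wt and het libraries ran from 1537908 to 3165552 counts. Genes named were Dll4, Gja5, Myc, Egr1, every gene called, and, from a gene list, up to 4 members by unadjusted p and the 2 with the highest mean CPM; others, such as copies and overlapping genes, are marked as named after their values were seen or are named for what they are (Lars2, Pecam1, Notch3). The members and lists were chosen with earlier results of these data known. A list is described by counts and its median, with no test. Copies were found with blastn against GENCODE transcripts (at least 98% identity over 300 bases). Alternatives used DESeq2 1.42.0, limma 3.58.1 (voom), library size only, other filters, wt and het libraries alone, each library left out, and near-identical copies summed. The fit was tested on simulated data.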

Additional observations from a re-analysis of the deposited data

How the results depend on the processing

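The count of genes called depended on the alternatives. It was 19 (14 higher, 5 lower) as reported, 24 with DESeq2, 18 with library size only, 19 with a mean log2 CPM of at least 1, and 22 with wt and het libraries alone. It was 150 (94 higher, 56 lower) with no filter on low counts and 8 (5 higher, 3 lower) with limma-voom. With single libraries left out it ran from 2 to 76, with 1 to 61 higher and 1 to 15 lower. The lowest count came without wt4 and the highest without het3, and the cause was not tested. With near-identical copies summed there were 13 (9 higher). Of the 19, limma-voom kept 7, DESeq2 16 and the fit without wt5 9. Gm9855 kept its call under all 12 alternatives other than the summing; Hnrnpm, Rbm45, Adamts8, Rps28 and Tdg-ps lost theirs under 5 or more. With copies summed the log2 difference was -0.11 for Gm7334, -0.08 for Gm9855 and Tdg-ps, -0.14 for Eif3j2 and 0.13 for Ncoa4, as the summing itself gives 1 value to a set. Among named genes that were not called, leaving out single libraries turned the sign of the log2 difference, which ran from -0.11 to 0.17 in Ccna2, -0.24 to 0.59 in Jag2, -0.08 to 0.15 in Ldha, -0.16 to 0.16 in Ncoa4, -0.30 to 0.00 in Notch1, -0.17 to 0.01 in Notch4, -0.27 to 2.44 in Npr3, -0.29 to 0.11 in Nr2f2, -0.26 to 0.08 in Nrarp, -0.02 to 0.06 in Pcna, -0.12 to 0.06 in Rplp0 and -0.05 to 0.01 in Sept11. Counts of 2 libraries a group limit precision most for genes with few counts. No paired analysis was possible because wt replicates 4 and 5 and het replicates 2 and 3 share no replicate number.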

Other observations

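No gene of the energy use or stress lists passed the test in het. None of the 18 tested glycolysis genes was called and their median log2 difference was 0.04, with Ldha, lactate dehydrogenase A, at 1872 and 1826 CPM in wt4 and wt5 and 2049 and 1750 CPM in het2 and het3. Hk2, a hexokinase, was the member with the lowest p, at 4.28 and 9.49 CPM in wt, 21.4 and 15 CPM in het and 21.4 and 16.8 CPM in KO (log2 difference in het 1.43 ± 0.40, adjusted p = 0.199). Of 15 tested hypoxia response genes none was called, 3 had both het libraries above wt and 4 below, and the median was 0.00. Higd1a, a mitochondrial hypoxia-induced protein, was at 51.8 and 52.5 CPM in wt and 76.9 and 66.7 CPM in het (adjusted p = 0.433). Among 16 heat shock and stress genes none was called and the median was -0.08; Atf4, the transcription factor of the integrated stress response, was at 133 and 140 CPM in wt and 186 and 174 CPM in het (0.40 ± 0.12, adjusted p = 0.287). The 13 tested genes of BMP and flow responses had a median of 0.03, with Id2, a BMP target, at 34.7 and 39.2 CPM in wt and 82.6 and 43.6 CPM in het (adjusted p = 0.441). With single libraries left out, these medians ran from -0.01 to 0.16 for glycolysis, -0.12 to 0.01 for hypoxia, -0.11 to -0.04 for heat shock and stress, and -0.06 to 0.10 for BMP and flow.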
